A study of Homo sapiens with 12 samples.

Results

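Cholesterol is made in almost every human cell, and the genes for its synthesis, uptake, transport and sensing form a textbook regulated set. The set described here holds 31 such genes, taken by name from the pathway: the enzymes that make mevalonate and its isoprenoid products, the enzymes from squalene to cholesterol, the sterol sensors and transcription factors, the carriers of sterol inside the cell, and the LXR receptors with the exporters and the ubiquitin ligase they control. Of the 31 genes, 27 had a transcript cluster of their own in the gene-level table and all 27 were among the 19912 genes tested. MYLIP and NPC2 were measured in clusters shared with a microRNA gene (MIR4639 and MIR4709), and FDFT1 and NR1H2 were read from exon probe sets, since no gene-level cluster carried their symbol alone. The samples were stable lines of HEK293T, a human embryonic kidney line that expresses the SV40 large T antigen. In the knockdown (KD) line a lentiviral short hairpin RNA targeted PPIL3, a nuclear cyclophilin of the spliceosome, and in the control line (SCR) the hairpin was scrambled. Both were selected with puromycin and harvested near confluence with no other treatment, and 3 arrays were made per line, on the Affymetrix HTA 2.0 design with probe sets for exons and for exon junctions. The labels describe a single hairpin against PPIL3, under numbers that differ between titles and source names, so effects of the hairpin's target and other effects of that hairpin or of its integration cannot be told apart. All values below are log2 RMA signals, and all differences are KD minus SCR.

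In animal cells the mevalonate pathway turns acetyl-CoA into isoprenoid units, and squalene epoxidase and the sterol enzymes after it turn squalene into cholesterol. When sterol in the endoplasmic reticulum is low, SCAP escorts the membrane-bound SREBP proteins to the Golgi, where they are cut to release a transcription factor that raises the genes of synthesis and uptake. When sterol is high, INSIG proteins hold SCAP back, and oxysterols activate the LXR receptors, which raise the exporters. INSIG1 is itself an SREBP target, so its transcript is widely used as a readout of SREBP activity, and translation, proteolysis and sterol content were not measured on these arrays.

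The array medians over all transcript clusters lay between 6.57 and 6.62. PPIL3 was 7.30, 7.26 and 7.28 on the KD arrays and 7.75, 7.81 and 7.81 on the SCR arrays, and it fell by 0.51 (SE 0.030, limma adjusted p = 0.0050), a change of -29.8%. With SCR array 2 or 3 left out the adjusted p was 0.053 or 0.080, and with unmoderated variances it was 0.071. Leaving out each other array gave 0.017 to 0.045. Read as the mean of its exon probe sets, PPIL3 fell by 0.74 (limma adjusted p = 2.6e-05). All 6 HEK293T markers were above the filter, and their mean signal was 9.15 to 9.20 on the KD arrays and 9.01 to 9.05 on the SCR arrays. The list went both ways. NEFM rose by 0.70, LIN28B, NEFL and LHX1 differed by 0.16, 0.13 and 0.05, PAX2 by -0.03 and VIM by -0.14, and only NEFM passed the test. For markers of other cell types the mean signals on the KD arrays were 7.20 to 7.33 for macrophage, 5.11 to 5.14 for immune, 4.93 to 5.004 for hepatocyte, 5.90 to 5.99 for fibroblast and 6.28 to 6.37 for endothelial genes. On the SCR arrays they were 7.25 to 7.33 for macrophage, 5.15 to 5.17 for immune, 4.92 to 4.97 for hepatocyte, 5.89 to 5.92 for fibroblast and 6.27 to 6.39 for endothelial genes. Within these lists PTPRC (4.18) and MS4A1 (4.76) of immune cells, ALB (4.48) and CYP7A1 (4.002) of hepatocytes and DCN (4.17) and LUM (4.41) of fibroblasts were under the minimum mean signal of 5, while CD3E (6.47), TTR (6.38), COL1A1 (8.20), COL1A2 (6.92) and all macrophage and endothelial markers were above it. A signal above that minimum does not show the transcript to be present. The part of these values in the results below was not tested. In bulk RNA, fewer cells of a type and less RNA per cell cannot be told apart.

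INSIG1 was the member with the largest difference. It was 0.59 higher in the KD line, and 6 further members of synthesis and sterol transport (HMGCS1, IDI1, MSMO1, SQLE, DHCR7 and NPC1) averaged 0.08 to 0.15 higher, with every KD array above every SCR array. TM7SF2, LSS and SCAP averaged 0.05 to 0.13 lower, with every KD array below every SCR array. None of the 27 tested members passed the adjusted threshold over all genes, where 137 of 19912 genes did (0.688%, with 111 or 0.557% higher and 26 or 0.131% lower). At an unadjusted p under 0.05 there were 9 members, 7 higher and 2 lower, which is 33.3% of the members, against 15.4% of all genes (8.82% higher and 6.62% lower). This count changed with the arrays used. It was 2 without SCR array 2 (7.41%, against 9.65% of all genes), 3 without SCR array 3 (11.1%, against 10.6%) and 4 without KD array 3 (14.8%, against 11.3%), and 5 with unmoderated variances (18.5%, against 12.1%). Without KD array 1 it was 6 (22.2%, against 18.4%), and without KD array 2 or SCR array 1 it was 7 (25.9%, against 16.3% and 14.3%). The share of all genes also fell in most of these fits. The groups did not overlap for 10 members (37%, 7 higher and 3 lower), against 20.3% of all genes (11% higher and 9.33% lower). The median difference of the 27 members was 0.04, and 16 of them lay above 0, while the median of all genes was -0.0045 and 46.8% of all genes lay above 0. The members' median was 0.0240 without KD array 2, 0.0149 without KD array 3, 0.0156 without SCR array 1 and 0.0224 without SCR array 2. Without INSIG1 the median of the other 26 was 0.02 and 9 had groups apart (34.6%). With array weights, which gave most weight to KD array 3 (4.84) and SCR array 2 (3.56), 10 members passed, as did 5967 of all genes. Genes of one pathway are measured on the same arrays and are not independent of each other, and these shares describe the set without testing it.

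**Figure D1:**
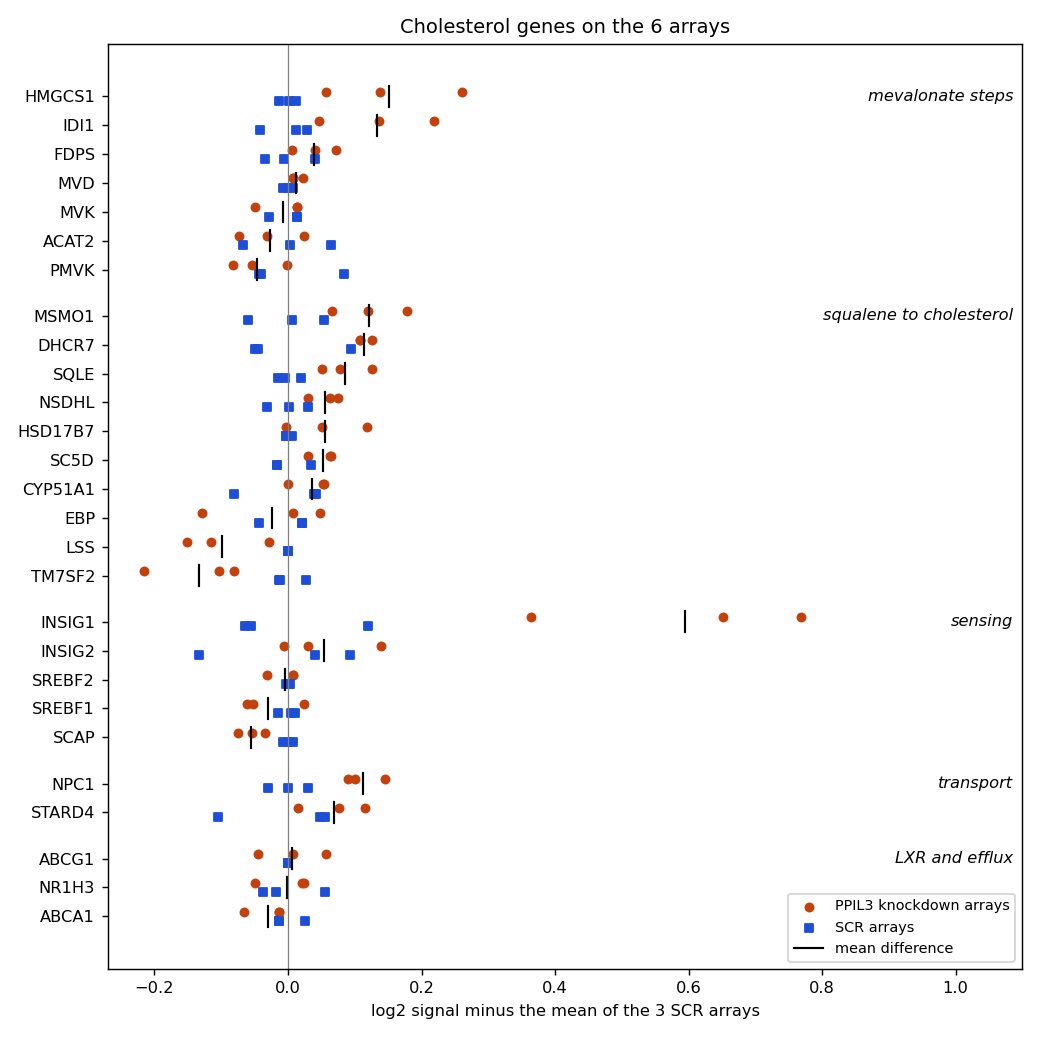
Log2 RMA signal of each of the 27 tested members on the 3 KD and 3 SCR arrays, drawn as the difference from the mean of the SCR arrays and grouped by role (circles are KD arrays, squares SCR arrays, and a black bar the mean difference). The bar of INSIG1 lies at 0.59, and those of the other members between -0.13 and 0.15.

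Mevalonate synthesis opens with ACAT2 and HMGCS1. HMGCS1, which makes HMG-CoA, was 9.81, 9.73 and 9.93 on the KD arrays and 9.67, 9.65 and 9.68 on the SCR arrays. All KD values lay above all SCR values, and the SCR arrays were the tighter of both groups (9.82 ± 0.10 in the KD line and 9.67 ± 0.013 in the SCR line, SD, n = 3 each). The difference was 0.15 (SE 0.052, 95% interval 0.03 to 0.28), with an unadjusted p of 0.024 and a limma adjusted p of 0.24, and it was 0.0975 without KD array 3. IDI1, which isomerizes the first isoprenoid unit, was 8.44, 8.35 and 8.52 on the KD arrays and 8.33, 8.26 and 8.31 on the SCR arrays. Its groups also did not overlap, but KD array 2 lay only just above SCR array 1, and the difference was 0.13 (SE 0.049, adjusted p = 0.26). The remaining 5 mevalonate genes overlapped between lines. FDPS, which joins the isoprenoid units to farnesyl diphosphate, differed by 0.04, MVD by 0.01 and MVK by -0.0070. ACAT2, which condenses acetyl-CoA, differed by -0.03, and PMVK, a kinase of mevalonate phosphate, by -0.05. Over the 7 genes the median difference was 0.01.

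FDFT1, squalene synthase, joins farnesyl units and commits carbon to sterols. Its mean over 28 exon probe sets was 9.39, 9.32 and 9.40 on the KD arrays and 9.25, 9.15 and 9.18 on the SCR arrays. The KD arrays were all above the SCR arrays, with a difference of 0.18 (SE 0.050, unadjusted p = 0.0040, limma adjusted p = 0.082), in a fit of 17729 genes in which 2.71% passed and the groups were apart for 22.3%. With the replicate number as a block the adjusted p was 0.035, and without KD array 2 it was 0.042, while leaving out each other array gave 0.091 to 0.38. Among its 44 retained exon and junction probe sets 38 were above 0 (49.3% of all probe sets were), with a median of 0.20. For 18 of them the groups did not overlap, all higher in the KD line (8.36% of all probe sets).

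The enzymes from squalene to cholesterol differed in both directions. SQLE, squalene epoxidase, was 10.20, 10.17 and 10.24 on the KD arrays and 10.14, 10.10 and 10.11 on the SCR arrays. The lines did not overlap, and the difference of 0.08 (SE 0.031, adjusted p = 0.26) corresponds to 6.07%. LSS, which closes squalene epoxide into lanosterol, was 8.97, 8.85 and 8.88 on the KD arrays and 8.999 on each SCR array. The SCR values were identical to the last digit deposited, and all KD values were lower, by 0.10 on average (SE 0.037, adjusted p = 0.29). TM7SF2, a sterol reductase, was 8.57, 8.44 and 8.55 on the KD arrays and 8.64, 8.68 and 8.64 on the SCR arrays. No KD array reached an SCR array, and the difference was -0.13 (SE 0.042, adjusted p = 0.21). MSMO1, which oxidizes the methyl groups at carbon 4 of the sterol, was 8.87, 8.81 and 8.93 on the KD arrays and 8.80, 8.76 and 8.69 on the SCR arrays. KD array 2 and SCR array 1 were close to each other, and the difference was 0.12 (SE 0.043, adjusted p = 0.26). DHCR7, the reductase that forms cholesterol from its last precursor, was 10.24, 10.24 and 10.26 on the KD arrays and 10.23, 10.09 and 10.09 on the SCR arrays. The difference of 0.11 (SE 0.044, adjusted p = 0.29) was set by SCR arrays 2 and 3, since SCR array 1 lay just below the KD arrays. The other 5 sterol enzymes overlapped between lines, with differences of 0.06 for NSDHL, 0.06 for HSD17B7, 0.05 for SC5D, 0.04 for CYP51A1 and -0.02 for EBP. Over the 10 sterol enzymes the median was 0.05, with 3 apart and higher and 2 apart and lower. Over all 17 synthesis enzymes the median was 0.04, with 5 apart and higher and 2 apart and lower, against 11% and 9.33% of all genes.

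**Figure D2:**
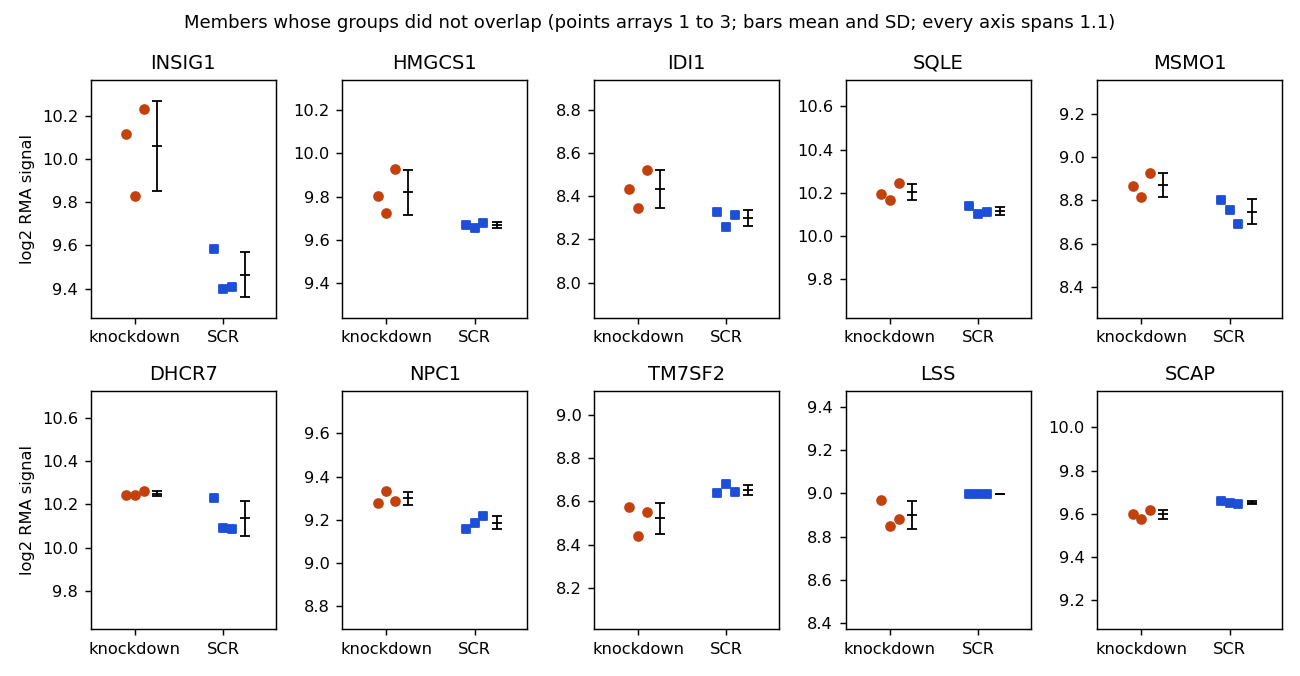
Log2 RMA signal on each array for the 10 members whose KD and SCR arrays did not overlap, with KD arrays left of SCR arrays in each panel, bars for the mean and SD, and axes that all span 1.1. The difference between the lines is 0.59 for INSIG1 and at most 0.15 in size for the others.

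INSIG1 (transcript cluster TC07001039.hg.1) holds SCAP in the endoplasmic reticulum. It was 10.12, 9.83 and 10.23 on the KD arrays and 9.59, 9.40 and 9.41 on the SCR arrays. Every KD array was above every SCR array, but KD array 2 lay nearer the SCR arrays than the other KD arrays did. Group means were 10.06 ± 0.208 in the KD line and 9.46 ± 0.104 in the SCR line (SD, n = 3 each). The difference was 0.59 (SE 0.107, 95% interval 0.34 to 0.85), or 51.0%, with an unadjusted p of 0.0011 and a limma adjusted p of 0.078, which misses the threshold. It stood 26th of 19912 genes by size and 265th by p, and 23 genes had a larger positive difference. Read as the mean of its 18 retained exon probe sets, on which 481 of 17729 genes passed (2.71%), INSIG1 rose by 0.51 (SE 0.079, limma adjusted p = 0.0046), with means of 9.76 ± 0.18 on the KD arrays and 9.25 ± 0.079 on the SCR arrays (SD, n = 3 each). On those exon means it passed with the replicate block (adjusted p = 0.00042) and without each array in turn (adjusted p 0.00053 to 0.031), while on the transcript cluster no array left out brought it past the threshold (adjusted p 0.051 to 0.32).

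The promoters of INSIG1 and of the synthesis enzymes HMGCS1 and MSMO1, whose KD arrays all lay above their SCR arrays, are printed next to that of SREBF2, which encodes the factor known to act on them and differed by -0.0051. Each is the stretch from base -220 to base -71 relative to the transcript start, 5′ to 3′ on the transcribed strand, from RefSeq (GRCh38.p14). Capitals mark exact matches on either strand to the SREBP-site letters TCACNCCAC, their shortened form CACNNCAC, or the CCAAT box bound by NF-Y, a partner of SREBP. The coordinates are chr7:155297658-155297807 (plus strand) for INSIG1, chr5:43313483-43313632 (minus) for HMGCS1, chr4:165327449-165327598 (plus) for MSMO1 and chr22:41832885-41833034 (plus) for SREBF2.
INSIG1: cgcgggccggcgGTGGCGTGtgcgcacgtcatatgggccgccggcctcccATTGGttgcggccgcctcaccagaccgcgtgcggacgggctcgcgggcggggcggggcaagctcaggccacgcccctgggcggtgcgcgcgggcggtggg
HMGCS1: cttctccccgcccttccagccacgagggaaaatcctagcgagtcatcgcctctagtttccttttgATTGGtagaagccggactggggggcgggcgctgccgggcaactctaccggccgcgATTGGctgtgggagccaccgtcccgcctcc
MSMO1: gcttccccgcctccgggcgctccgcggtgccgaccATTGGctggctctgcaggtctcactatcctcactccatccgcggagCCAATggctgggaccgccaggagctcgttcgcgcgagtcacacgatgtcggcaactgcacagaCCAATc
SREBF2: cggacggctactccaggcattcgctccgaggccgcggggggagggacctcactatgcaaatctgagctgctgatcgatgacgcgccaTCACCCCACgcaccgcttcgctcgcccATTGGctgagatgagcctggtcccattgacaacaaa

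Every promoter printed holds at least 1 CCAAT match, and only SREBF2 holds the full SREBP-site letters. A RefSeq promoter window (250 bases before to 50 after the start) was at hand for 27 members, which are not the 27 tested. MYLIP, NPC2 and NR1H2 had a window, while ACAT2, FDFT1, SQLE and ABCG1 had none. Over these 27, TCACNCCAC occurred in 1 member gene (3.7%, against 1.39% of 27305 genes), and CACNNCAC, which overlaps it, in 6 (22.2%, against 17.5%). CCAAT occurred in 19 of 27 (70.4%, against 39.7%) and in 16 of the 19 SREBP-controlled members among them. The GC box GGGCGG was found in 26 of 27 (96.3%, against 48.3%). The 27305 genes were all those with a window and were not limited to the 19912 tested. The members and this background are therefore unlike sets, and the shares were not tested. The LXR element, AGGTCA repeated after 4 free bases, was in none of the members and in 7 of 35116 windows of all genes (0.0199%). These are matches of letters on both strands, not bound sites, and a missing match says only that the letters are not in the window.

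The INSIG1 probe sets differed by unequal amounts. Of its 27 retained probe sets, 18 over exons and 9 over junctions, 24 were above 0 (49.3% of all probe sets were) with a median of 0.65, and 19 had every KD array above every SCR array (8.36% of all 571167 probe sets did). None passed the adjusted threshold, and neither did any of the members' 1152 probe sets, whose smallest adjusted p was 0.069, against 27 of 571167 overall (0.00473%). At an unadjusted p under 0.05 there were 143 member probe sets (12.4%), against 9.74% of all, and there were 94 without SCR array 2 (8.16%, against 6.52%) and 86 without SCR array 3 (7.47%, against 6.5%). The 3 with the smallest p all belonged to INSIG1. The exon probe set PSR07016053 was 10.57, 10.56 and 10.72 on the KD arrays and 9.78, 9.74 and 9.66 on the SCR arrays, a difference of 0.89 (adjusted p = 0.069), with a wide gap between lines. The junction probe sets JUC07007772 and JUC07007775 differed by 0.92 and 1.37 (adjusted p = 0.14 for each). In the order of their identifiers, the 5 lowest-numbered exon probe sets differed by 0.02 to 0.25, with a median of 0.09 at signals of 7.77 to 12.1, and only 1 had its groups apart. The 13 higher-numbered ones ranged from -0.08 to 0.94 with a median of 0.84, and 11 of them were apart and at 0.44 or more. This division was made after the values were seen and was not tested, and the place of the probe sets in the gene was not looked up. The 9 junction probe sets ranged from -0.07 to 1.37, with 7 higher and 2 overlapping.

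**Figure D3:**
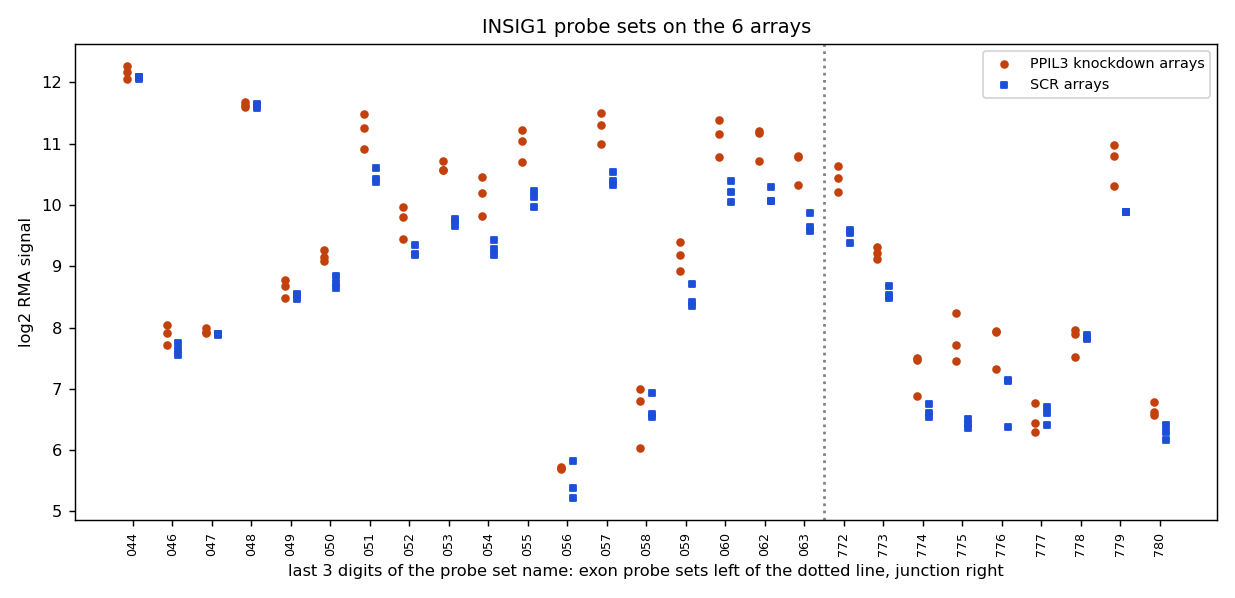
Log2 RMA signal of each retained INSIG1 probe set on the 3 KD arrays (circles) and the 3 SCR arrays (squares), exon probe sets left of the dotted line and junction probe sets right of it, in the order of their identifiers. The circles lie close to the squares for the 5 lowest-numbered exon probe sets and stand clear above them for 11 of the 13 others.

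The splicing index, a probe set's signal minus the mean of its gene's exon probe sets on the same array, asks whether a probe set departed from its own gene. No index passed in any gene (0 of 565705, 0%, with 41977 at an unadjusted p under 0.05, 7.42%). Among the 1152 member indices 100 (8.68%) had an unadjusted p under 0.05, and 18 of these were from INSIG1. The count was 153 without KD array 1 (13.3%, against 10.4% of all) and 62 without SCR array 3 (5.38%, against 5.03%). The smallest p values were those of INSIG1 JUC07007778 (-0.56, adjusted p = 0.47), INSIG1 JUC07007777 (-0.58, adjusted p = 0.50) and NR1H3 JUC11002774 (0.53, adjusted p = 0.51). With an index of either sign inside a gene whose mean itself differed, these values describe unequal signals along INSIG1 and do not name an isoform.

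The other sensing genes differed by at most 0.05 in size. SCAP, the sterol-sensing escort, was 9.60, 9.58 and 9.62 on the KD arrays and 9.66, 9.65 and 9.65 on the SCR arrays. All KD arrays were below all SCR arrays, by 0.05 on average (SE 0.026, unadjusted p = 0.075, adjusted p = 0.38). Of the 78 retained SCAP probe sets 68 were below 0, with a median of -0.08, where 49.3% of all probe sets were above 0. INSIG2, the second INSIG protein, was 8.81, 8.84 and 8.95 on the KD arrays and 8.68, 8.85 and 8.91 on the SCR arrays. Its lines overlapped, with a difference of 0.05 (SE 0.068, 95% interval -0.11 to 0.22), an interval that excludes a difference as large as that of INSIG1. SREBF1, which encodes the SREBP-1 proteins, was 8.41, 8.32 and 8.33 on the KD arrays and 8.39, 8.39 and 8.37 on the SCR arrays, a difference of -0.03 (95% interval -0.11 to 0.05, adjusted p = 0.73). Its 77 retained probe sets were split at 38 above and 39 below 0, ranged from -0.46 to 0.40 and had a median of -0.0015. SREBF2, which encodes the main activator of cholesterol genes, was 8.88, 8.84 and 8.88 on the KD arrays and 8.87, 8.88 and 8.88 on the SCR arrays. The difference was -0.0051 (95% interval -0.07 to 0.06, adjusted p = 0.95), and its 70 probe sets had a median of -0.0031.

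Sterol transport inside the cell was represented by NPC1, NPC2 and STARD4. NPC1, the lysosomal membrane protein that exports cholesterol from lysosomes, was 9.28, 9.33 and 9.29 on the KD arrays and 9.16, 9.19 and 9.22 on the SCR arrays. The lines were apart and equally tight (9.30 ± 0.030 in the KD line and 9.19 ± 0.030 in the SCR line, SD, n = 3 each). The difference was 0.11 (SE 0.031, 95% interval 0.04 to 0.19, unadjusted p = 0.0090, limma adjusted p = 0.16). Of the 59 retained NPC1 probe sets 48 were above 0 (49.3% of all probe sets were), with a median of 0.13. For 23 of them the KD arrays were all above the SCR arrays (8.36% of all probe sets). The cluster shared by NPC2, the soluble lysosomal partner of NPC1, and MIR4709 was 9.76, 9.77 and 9.77 on the KD arrays and 9.78, 9.66 and 9.65 on the SCR arrays, and it overlapped through SCR array 1 (difference 0.07, adjusted p = 0.49). STARD4, a cytosolic sterol carrier, was 8.20, 8.09 and 8.16 on the KD arrays and 7.98, 8.14 and 8.13 on the SCR arrays, which overlapped (0.07, adjusted p = 0.61).

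The KD and SCR arrays overlapped for each LXR receptor and LXR-controlled gene of the set. ABCA1, which loads cholesterol onto lipid-poor apolipoprotein, was 6.25, 6.20 and 6.25 on the KD arrays and 6.29, 6.25 and 6.25 on the SCR arrays (difference -0.03, 95% interval -0.10 to 0.04, adjusted p = 0.70). ABCG1, a second sterol exporter, was 7.32, 7.21 and 7.27 on the KD arrays and 7.26 on each SCR array (0.0065, 95% interval -0.07 to 0.09, adjusted p = 0.95). The KD values fell on both sides of the SCR value. NR1H3, the gene for LXR alpha, differed by -0.0014, and NR1H2, for LXR beta, by -0.01 on its exon mean, which was 8.62, 8.61 and 8.63 on the KD arrays and 8.68, 8.61 and 8.60 on the SCR arrays. The cluster shared by MYLIP, an LXR-induced ubiquitin ligase that degrades lipoprotein receptors, and MIR4639 was 8.93, 8.79 and 8.88 on the KD arrays and 8.90, 8.90 and 8.93 on the SCR arrays (-0.05, SE 0.040, adjusted p = 0.67). The tested members were also taken by the factor known to control them. The 21 SREBP-controlled genes had a median difference of 0.05, with 7 apart and higher and 2 apart and lower. The 4 LXR-controlled genes, here SREBF1, ABCA1, ABCG1 and NR1H3 without MYLIP, had a median of -0.02 with none apart. Of all genes 11% were apart and higher and 9.33% apart and lower, and in a group of 4 genes a count of 0 cannot be told apart from those shares. Without INSIG1 the median of the other 20 SREBP-controlled genes was 0.05, with 6 higher and 2 lower.

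**Figure D4:**
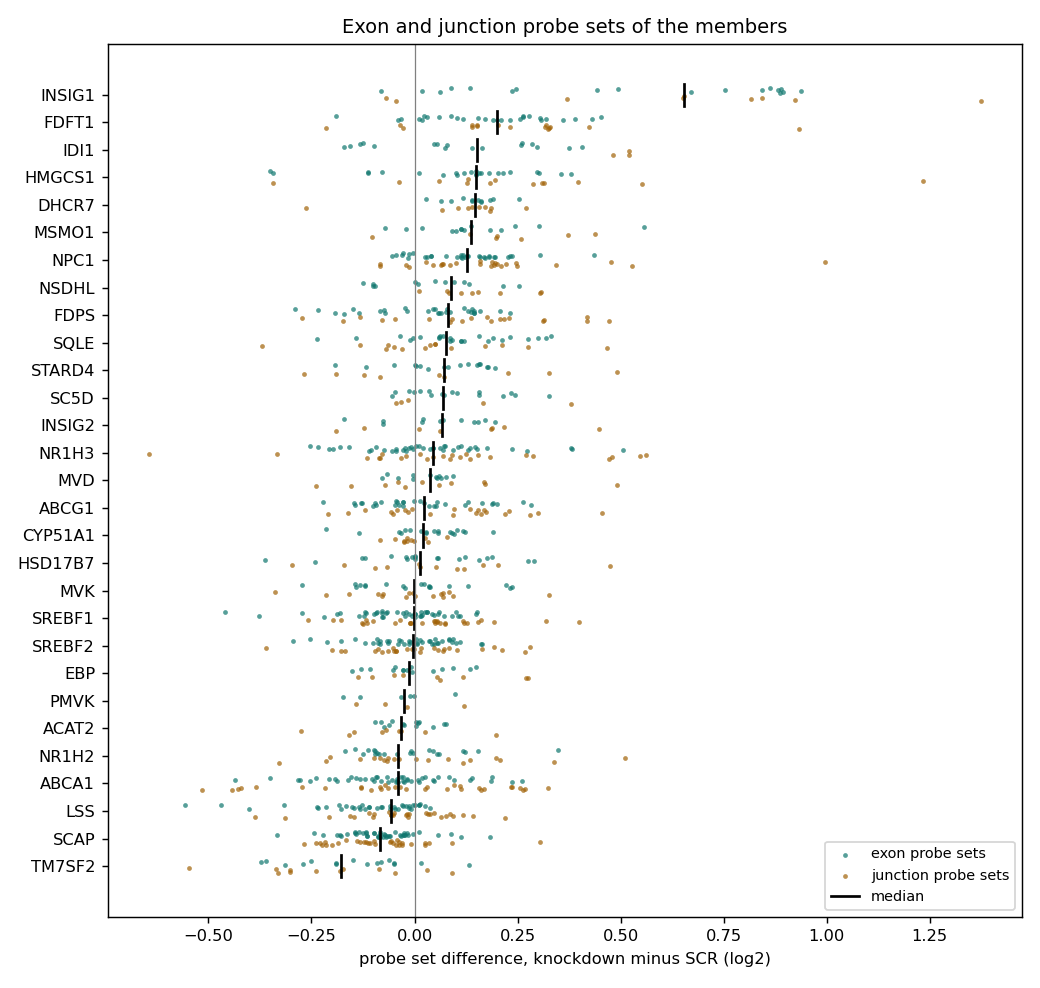
KD minus SCR difference (log2) of the retained exon and junction probe sets of each member, with the median as a black bar and the members ordered by it. INSIG1 has the highest median, at 0.65, FDFT1 lies at 0.20 and TM7SF2 at -0.18, the lowest.

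The other members whose lines were apart at gene level were also read by probe set. Of all probe sets 49.3% were above 0 and 8.36% were apart and higher. HMGCS1 had 30 of 37 above 0 with a median of 0.15, and 13 were apart and higher while 2 were apart and lower. IDI1 had 15 of 20 above 0 (median 0.15, 7 apart and higher), SQLE 29 of 40 (median 0.08, 11), MSMO1 18 of 21 (median 0.14, 6) and DHCR7 21 of 22 (median 0.15, 7). The signs of these genes were thus those of their transcript clusters. Both summaries come from the same arrays and the genes were picked by their clusters, so this agreement is not a separate reading. Probe sets of one gene are not replicates. On the lower side, LSS had 50 of 67 probe sets below 0 (median -0.06) with 13 apart and lower, and TM7SF2 had 24 of 28 below 0 (median -0.18) with 9 apart and lower and 1 higher, where 8.08% of all probe sets were apart and lower. Exon means gave 0.10 for HMGCS1, 0.10 for IDI1, 0.11 for SQLE, 0.15 for MSMO1, 0.14 for DHCR7, 0.12 for NPC1, -0.12 for LSS, -0.15 for TM7SF2 and -0.08 for SCAP, with adjusted p between 0.12 and 0.42, and IDI1 was the one of these whose groups overlapped on that scale. SC5D, which overlapped at gene level, was apart and higher there (0.10, adjusted p = 0.33).

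The order of the KD arrays was shared among the members that stood higher. KD array 3 was above KD array 1 and KD array 1 above KD array 2 for 6 of the 7 members whose KD values all exceeded their SCR values (85.7%), and NPC1 was the exception, against 270 of the 2187 genes of that kind among all genes (12.3%). Over the 21 SREBP-controlled members the order held for 7 (33.3%), against 12.1% of all genes. Of these 7, 6 were the genes already counted, and the other was SC5D, so the order was not a wider trait of the SREBP-controlled members. For DHCR7 it rested on 10.2440 on KD array 1 against 10.2428 on KD array 2. The replicate arrays have no set order, so this describes which arrays were high together, and what they had in common was not tested.

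Neighbouring pathways were described in the same way, from the same limma fit. The fatty acid genes that SREBP-1 drives (9 of 10 tested) had a median of 0.06 with none called, and the genes with the largest differences were ELOVL6, a fatty acid elongase, at 8.68, 8.69 and 8.69 on the KD arrays and 8.57, 8.55 and 8.56 on the SCR arrays (0.13, adjusted p = 0.086), and FADS2, a desaturase (0.07). The genes that process SREBP or turn over INSIG proteins (7 of 8 tested) had a median of -0.05 with none called and 4 apart, 1 higher and 3 lower, against 20.3% of all genes. RNF145, a ubiquitin ligase of this group, was 8.76, 9.12 and 8.81 on the KD arrays and 9.23, 9.25 and 9.22 on the SCR arrays, a difference of -0.34 (adjusted p = 0.16) with KD array 2 near the SCR arrays. It passed without KD array 2 (-0.45, adjusted p = 0.030) and on exon means (-0.32, adjusted p = 0.048). MBTPS1, the first protease that cuts SREBP, differed by 0.15 (adjusted p = 0.13). The genes that use isoprenoids (8 of 9 tested) had a median of 0.01 with none called, led by PDSS1 at -0.14 (-0.20 to -0.07 without each array) and COQ2 at 0.11 (0.06 to 0.15), both of coenzyme Q synthesis. Of 12 genes of sterol storage, oxysterol synthesis and sterol transfer the median was 0.02 and 1 was called. That gene, GRAMD1C, of a family that moves cholesterol between plasma membrane and endoplasmic reticulum, rose by 0.29 (SE 0.031, limma adjusted p = 0.021), at 6.75, 6.74 and 6.81 on the KD arrays and 6.45, 6.50 and 6.47 on the SCR arrays. With the replicate block its adjusted p was 0.070, and without each array in turn it was 0.049 to 0.16, past the threshold only without KD array 2. Lipoprotein receptors (5 of 6 tested) had none called, with LRP2 at 0.45 (adjusted p = 0.11) and LRP1 at -0.22 (adjusted p = 0.23), and on exon means LRP2 passed (0.48, adjusted p = 0.0072). Of 3 further LXR targets none was called, and those that differed most were SMPDL3A and PLTP (-0.04). SMPDL3A was 8.27, 8.36 and 8.29 on the KD arrays and 8.25, 8.13 and 8.08 on the SCR arrays, with all KD arrays above all SCR arrays (0.15, adjusted p = 0.23). The genes with an unadjusted p under 0.05 were 1 of 9 fatty acid genes, 3 of 7 genes of SREBP processing or INSIG turnover, 0 of 8 genes of isoprenoid use, 1 of 12 genes of sterol storage and transfer (GRAMD1C), 2 of 5 lipoprotein receptors and 1 of 3 further LXR targets, against 15.4% of all genes. With array weights 5967 of all 19912 genes passed. Among the neighbouring genes named here ELOVL6, FADS2, MBTPS1, RNF145, PDSS1, GRAMD1C, LRP1, LRP2 and SMPDL3A were among them, and COQ2 and PLTP were not.

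**Figure D5:**
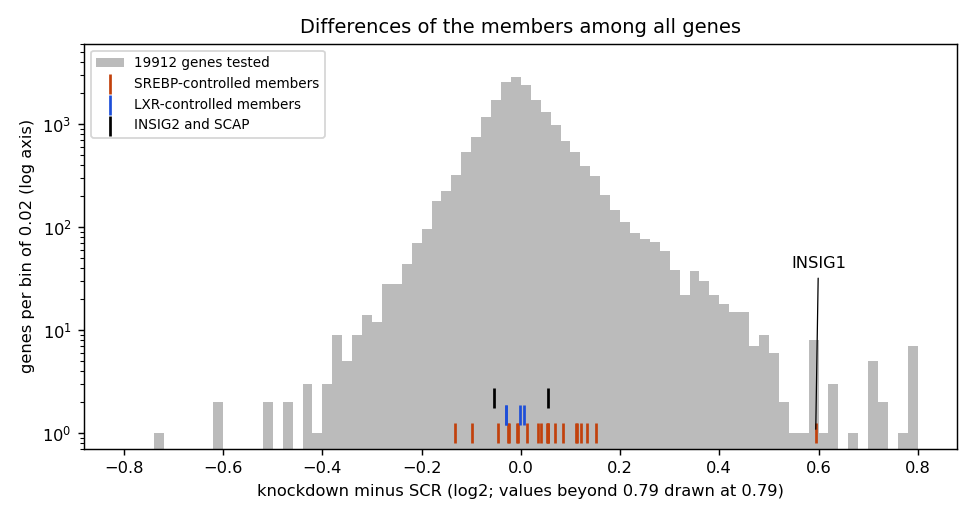
Histogram of the KD minus SCR difference (log2) of all 19912 genes tested in grey, with genes per bin on a log axis, and ticks for the 27 tested members (SREBP-controlled, LXR-controlled, and INSIG2 with SCAP). INSIG1 stands at 0.59 in the sparse upper tail, and the other members lie between -0.13 and 0.15.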

How the data were processed

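HEK293T cells with a PPIL3 or a scrambled hairpin were profiled on 6 arrays, each deposited as a gene-level and as a probe set summary (12 samples). The 2995 features common to both held identical values for same-named samples, so the summaries were not counted as separate replicates. The authors deposited log2 values made with Affymetrix Expression Console and RMA (background correction, quantile normalization, robust summary per feature), and neither the versions nor the genome build is given in the sources used here. It makes the arrays' distributions equal, so a shift common to most transcripts would not be seen.

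Symbols came from platform annotation updated through RefSeq (306 changed). Of 67528 transcript clusters, 23781 had 1 symbol, 1543 several and 42204 none. The brightest single-symbol cluster stood for a gene, and 19912 genes with a mean of at least 5 were fitted in limma (lmFit, then eBayes; two-sided; Benjamini-Hochberg over all genes, threshold 0.05). Of 571167 probe sets the log2 value was tested, and of 565705 in 17729 genes with at least 3 exon probe sets the splicing index. Precision is limited by 3 arrays per group. The labels do not say that replicates came from separate transductions, and the p-values then cover no more than array-to-array spread, which may be technical.

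Same-numbered arrays deviated together from their group means (r = 0.344, 0.157 and 0.141), each over the 0.1 taken as the bound for pairing, so a replicate block was also fitted. KD array 3 with SCR array 2, of different numbers, gave 0.215, so the pattern was not specific to shared numbers. It left 32 genes called and no member.

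All members were named. Array values were given for members with an unadjusted p under 0.05 and for a list of regulators, in the other lists the called genes or the 2 with the largest differences were named, and the 3 probe sets with the smallest p in each test. The members and lists were chosen with earlier results of these data known. The fits of exon means with a block or without an array, and the shares of all genes and probe sets at each setting, were chosen after seeing the data. In data simulated on the 19912 genes, log2 changes of 0.25, 0.5 and 1 were each given to 50 genes. Of those genes 70%, 98% and 100% were recovered. These rates need not hold for genes with a wide spread between arrays, such as INSIG1. Fits used limma 3.58.1 with statmod 1.5.0 under R 4.3.3, and plots used matplotlib 3.10.9 under Python 3.11.15.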

Additional observations from a re-analysis of the deposited data

How the results depend on the processing

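The count of 137 genes called was 32 with the replicate block, 216 with quantile normalization over named clusters, 4 without moderation of the variance, 5967 with array weights and 481 on exon means, and leaving out each array gave 1 to 68 (68 without KD array 1, 59 without KD array 2, 12 without KD array 3, and 9, 5 and 1 without SCR arrays 1, 2 and 3). The count of 0 member genes was 10 with array weights (DHCR7, HMGCS1, IDI1, INSIG1, LSS, MSMO1, NPC1, NSDHL, SQLE and TM7SF2) and 1 on exon means (INSIG1), and 0 without each array in turn (0 to 0). The weights ran from 0.225 for KD array 2 to 4.84 for KD array 3, so few arrays carried that fit. INSIG1 differed by 0.79 with array weights (adjusted p = 0.00093) and by 0.51 on exon means, and by 0.51 to 0.71 without each array. The members' median was 0.0238 on exon means and 0.0149 to 0.0456 without each array, against 0.0353. Of member probe sets 1 was called at a mean of at least 6 and 8 with a robust trended variance, against 0 otherwise (0 to 0 without each array). The calls over all probe sets at these settings are not given here, so those counts cannot be set against a share. At an unadjusted p under 0.05 the member shares were 13.8% and 14.1%, against 10.3% and 10.9% of all probe sets. Splicing indices called stayed at 0.

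Small differences changed sign: with array weights EBP (0.018), MVK (0.024), NR1H3 (0.043) and SREBF2 (0.0052), and on exon means NR1H3 (0.034). Without each array the ranges crossed 0 for ABCG1 (-0.019 to 0.032), EBP (-0.061 to 0.028), MVK (-0.021 to 0.014), NR1H3 (-0.020 to 0.026), SREBF2 (-0.012 to 0.0080), CYP51A1 (-0.0050 to 0.056), INSIG2 (-0.012 to 0.10), ACAT2 (-0.061 to 0.0055) and the NR1H2 exon mean (-0.026 to 0.014). The replicate block changed no call among member genes of the gene-level table. The cause of these shifts was not tested. With 3 arrays per line, a simulated log2 change of 0.25 was recovered in 70% of 50 genes. Every member difference but that of INSIG1 was smaller. In the deposited values INSIG1 (0.59, SE 0.107) and LRP2 (0.45, SE 0.097) were not called, so simulated rates need not hold for genes with a wide spread. The reason for the missing calls was not tested.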
